A study of Homo sapiens with 6 samples.

Results

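The 10 genes described here encode acute-phase secreted proteins, plasma proteins whose synthesis the liver raises in inflammation: HP, CP, SAA1, SAA2, SERPINA1, SERPINA3, SPINK1, ITIH4, LRG1 and ORM1. They were chosen by gene symbol, and rows that share a symbol were summed, which applied to the 2 rows of SERPINA3. They are 10 of 58828 symbols in the expression tables. Bulk RNA was sequenced in 3 libraries of tumours given recombinant human lumican (rhLUM) and 3 without it (Ctrl). The tumours were xenografts grown from MHCC97L, a long-established line of human liver cancer cells. Lumican is a matrix proteoglycan of the leucine-rich repeat family. The labels give neither dose, route and duration nor the host strain or what the controls received. All tumours come from a single cell line. The labels do not say whether the libraries of a group are separate tumours, so every p-value here is set against a spread among libraries that may be technical.

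In the acute-phase response, cytokines such as IL6 and IL1 act on hepatocytes through STAT3, C/EBP and NF-kB family factors and change which proteins the liver secretes. Some plasma proteins rise, among them haptoglobin, serum amyloid A and several protease inhibitors, while albumin and transferrin fall. Liver cancer cells can keep much of this program, so these transcripts can be measured in a tumour of hepatocyte origin. The comparison asked how the tumour's transcripts differ when lumican is supplied.

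Every member was lower in rhLUM tumours than in Ctrl tumours. The serum amyloid genes SAA1 and SAA2 and haptoglobin, HP, were close to 0 TPM with rhLUM, and SPINK1 and SERPINA3 were at 6.46% and 7.43% of their Ctrl level. CP and SERPINA1, the most abundant members with rhLUM, fell by less, to 60.2% and 54.8%. In a fit over all genes, 10 of 10 members passed as lower (limma on log2(TPM + 1), Benjamini-Hochberg adjusted p under 0.05), against 22.3% of the 14878 genes tested. For each of the 10, all 3 rhLUM libraries lay below all 3 Ctrl libraries, which held for 24.3% of genes tested. The log2 fold change was -2 or below in 6 members (SAA1, HP, SPINK1, SERPINA3, SAA2 and LRG1), and in 0.807% of genes tested. TPM is a transcript's share of its library after division by length, so levels of different genes can be set side by side. The median log2 fold change of the members was -2.95, against 0.16 for all genes tested. All 10 passed the filter of a mean of 1 TPM over the 6 libraries, but HP, SAA1 and SAA2 did so through Ctrl alone. In a bulk tumour, fewer cells that express a gene and less RNA per cell cannot be told apart.

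The tables keep no read depth. Symbols above 0 TPM numbered 22255 to 22849 with rhLUM and 23447 to 23956 in Ctrl. On log2(TPM + 1), libraries of 1 group correlated at Pearson's r = 0.977 to 0.981 (6 pairs) and libraries of different groups at 0.926 to 0.933 (9 pairs), over genes, which are no independent replicates. Of all calls, 66.5% were higher with rhLUM as deposited and 52.6% after median-of-ratios scaling. That scaling shifted the median log2 fold change of the genes tested by -0.15. The mitochondrial share of TPM was 14.4 ± 0.10% with rhLUM and 20.6 ± 0.078% in Ctrl (SD, n = 3 each). All 10 members passed as lower under both that scaling and a rescaling without mitochondrial genes.

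Haptoglobin and ceruloplasmin handle haem and metal in plasma. HP (chr16:72054592-72061055, GRCh38, protein coding) encodes the plasma protein that captures free haemoglobin. It stood at 0.89, 0.65 and 0.23 TPM in the rhLUM libraries, against 48.84, 46.05 and 46.89 TPM in the Ctrl libraries. The groups lay far apart, and rhLUM reached 1.25% of the Ctrl mean. On the log2 scale the change was -4.95 (SE 0.15, limma adjusted p = 4.56e-07), and -6.24 with a pseudocount of 0.1 in place of 1. HPR, its neighbour and close relative, was under 1 TPM in every library. Of the distinct 31-base words in HP transcripts, 15.9% also occur in HPR.

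CP (chr3:149162410-149222055) encodes ceruloplasmin, the copper-carrying ferroxidase of plasma. It stood at 752.26, 769.45 and 750.91 TPM with rhLUM, against 1263.21, 1280.25 and 1230.68 TPM in Ctrl. The coefficient of variation was 1.36% with rhLUM and 2.00% in Ctrl, so the modest change was well outside the spread of the libraries. On the log2 scale CP fell by 0.73 (SE 0.02, limma adjusted p = 2.93e-07). CP was the most abundant member in both groups, ranking 177th of the genes tested with rhLUM and 98th in Ctrl. HPS3, on the other strand, overlaps CP and rose by 0.69, and the use of strand in counting is not given.

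**Figure D1:**
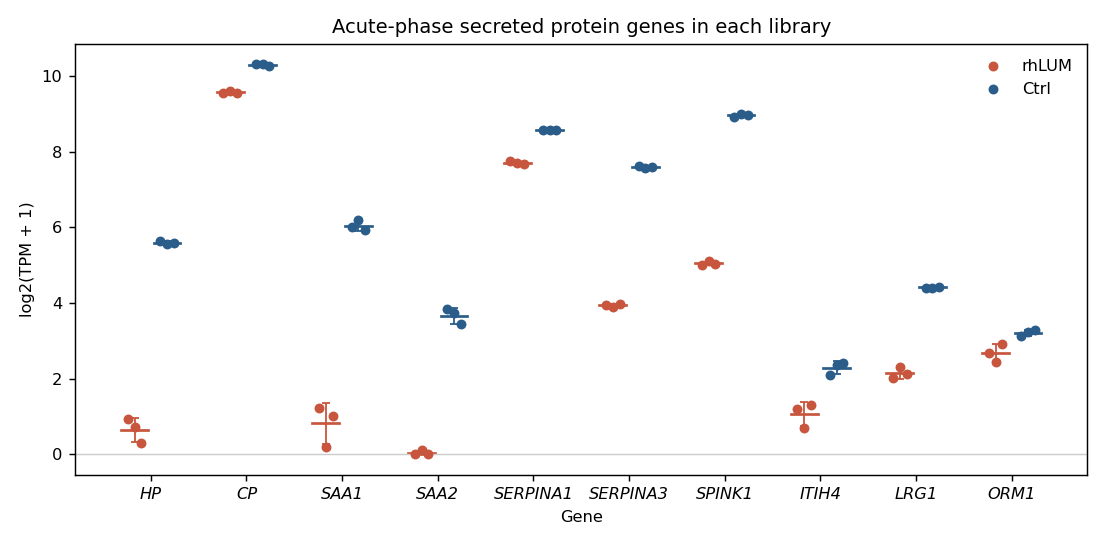
Level of each of the 10 genes in each library, as log2(TPM + 1). Points are libraries (rhLUM left in red, Ctrl right in blue), horizontal lines are means and bars SD (n = 3). For all 10 genes the rhLUM points lie below the Ctrl points, with SAA2 at or near 0 and the closest approach in ORM1.

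SAA1 and SAA2 encode the acute serum amyloid A proteins, which travel on high-density lipoprotein and can rise more in inflammation than almost any other plasma protein. SAA1 (chr11:18266174-18269977) stood at 1.32, 0.15 and 1.03 TPM with rhLUM, against 63.59, 71.67 and 59.30 TPM in Ctrl. It fell by 5.22 on the log2 scale (SE 0.25, limma adjusted p = 2.94e-06), and the change was -6.46 with a pseudocount of 0.1. SAA2 (chr11:18239223-18248643) was listed at 0, 0.08 and 0 TPM with rhLUM, against 13.24, 12.27 and 9.77 TPM in Ctrl. The fitted log2 fold change of SAA2 was -3.63 (SE 0.13, limma adjusted p = 1.04e-06), and -6.60 with a pseudocount of 0.1. An exact 0 in such a table can be a failed estimate, so no mean is given for SAA2 with rhLUM.

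The SAA pair shares much sequence. Their reading frames of 369 bases differ at 11 bases (97.0% identity), with an identical run of 186 bases, and 53.2% of the 31-base words of SAA1 transcripts occur in SAA2. Reads can therefore be split between them, and their separate values are uncertain. In Ctrl, SAA1 exceeded SAA2 by a ratio of 5.57 ± 0.68 (SD, n = 3). SAA4, the constitutive member of the cluster, was at 0, 0 and 0.11 TPM with rhLUM and 1.16, 2.45 and 1.51 TPM in Ctrl, below the filter.

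The 4 protease inhibitors differed widely in the size of their fall. SERPINA1 (chr14:94376747-94390693) encodes alpha-1-antitrypsin, the main plasma inhibitor of neutrophil elastase. It stood at 213.28, 207.83 and 202.65 TPM with rhLUM, against 379.91, 381.47 and 377.00 TPM in Ctrl. This was a log2 fold change of -0.87 (SE 0.02, limma adjusted p = 3.33e-07). SERPINA3 (chr14:94612377-94624055) encodes alpha-1-antichymotrypsin, an inhibitor of cathepsin G and chymase. It stood at 14.39, 13.76 and 14.66 TPM with rhLUM, against 195.55, 187.88 and 192.60 TPM in Ctrl. SERPINA3 thus fell by 3.66 on the log2 scale (SE 0.04, limma adjusted p = 5.65e-09).

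These 2 serpins lie in the same gene cluster on chromosome 14, and their levels moved apart. The ratio of SERPINA1 to SERPINA3 was 14.6 ± 0.67 with rhLUM and 1.98 ± 0.047 in Ctrl (SD, n = 3 each). Both rows of SERPINA3 were lower. The first held 3.45, 4.61 and 3.73 TPM with rhLUM, against 67.57, 61.09 and 60.55 TPM in Ctrl. The other held 10.94, 9.15 and 10.93 TPM with rhLUM, against 127.98, 126.79 and 132.05 TPM in Ctrl. Tested apart, the rows gave log2 fold changes of -3.71 and -3.52. In GENCODE release 29 another coding gene, AL049839.2, spans SERPINA3 on the same strand and holds 30.4% of its 31-base words. The tables give no identifiers, so which locus each row stands for is not known.

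SPINK1 (chr5:147824568-147831786) encodes the pancreatic secretory trypsin inhibitor, which hepatocytes and several tumours also make in inflammation. It stood at 31.24, 33.48 and 31.34 TPM with rhLUM, against 478.53, 509.86 and 498.25 TPM in Ctrl. Its change on the log2 scale was -3.91 (SE 0.04, limma adjusted p = 5.65e-09). In Ctrl it was the second most abundant member and ranked 238th of the genes tested. With rhLUM it ranked 4427th. ITIH4 (chr3:52812975-52831479) encodes a plasma protein of the inter-alpha-trypsin inhibitor heavy chain family that plasma kallikrein cleaves. It was scarce, at 1.30, 0.61 and 1.46 TPM with rhLUM, against 3.25, 4.11 and 4.32 TPM in Ctrl. For ITIH4 the log2 fold change came to -1.22 (SE 0.19, limma adjusted p = 0.00108), and -1.78 with a pseudocount of 0.1. Of its 31-base words, 68.8% occur in AC006254.1, a coding gene annotated across it on the same strand, so the value is less certain than those of the other inhibitors.

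LRG1 (chr19:4536409-4540474) encodes leucine-rich alpha-2-glycoprotein, a plasma glycoprotein known to modulate TGF-beta signalling in endothelial cells. It stood at 3.01, 3.94 and 3.31 TPM with rhLUM, against 20.19, 20.20 and 20.45 TPM in Ctrl. LRG1 fell by 2.27 on the log2 scale (SE 0.09, limma adjusted p = 1.11e-06). The groups did not overlap, and the coefficient of variation was 13.9% with rhLUM and 0.73% in Ctrl.

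ORM1 (chr9:114323056-114326475) encodes alpha-1-acid glycoprotein, a carrier of basic drugs and other small lipophilic molecules. It had the smallest change of the members, at 5.38, 4.37 and 6.50 TPM with rhLUM, against 7.65, 8.37 and 8.67 TPM in Ctrl. Its log2 fold change came to -0.54 (SE 0.13, limma adjusted p = 0.00765). On leaving out each library in turn it was -0.66 to -0.41 with adjusted p up to 0.0297. ORM2, the other acid glycoprotein gene, lies 3394 bases away on the same strand. It stood at 5.32, 4.55 and 5.89 TPM with rhLUM, against 5.36, 4.54 and 4.36 TPM in Ctrl, and did not pass (log2 fold change 0.12, limma adjusted p = 0.38; -0.02 after median-of-ratios scaling). The ratio of ORM1 to ORM2 was 0.96 to 1.10 with rhLUM and 1.43 to 1.99 in Ctrl. These ranges did not overlap, but with 3 libraries a group the smallest two-sided p an exact permutation test allows is 0.1.

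The reading frames of ORM1 and ORM2 are each 606 bases and differ at 31 of them (94.9% identity). The longest identical run is 206 bases. Of the 31-base words in ORM1 transcripts, 49.8% also occur in ORM2. A read that lies wholly within a shared stretch cannot by itself be assigned to either gene, and the share of such reads was not tested. Only bases that differ can tell these reading frames apart. The 120-base stretch with the most differences, bases 280 to 399 of the reading frame, is shown. Capitals mark the 20 bases that differ, and the transcripts are from GENCODE release 29.
ORM1: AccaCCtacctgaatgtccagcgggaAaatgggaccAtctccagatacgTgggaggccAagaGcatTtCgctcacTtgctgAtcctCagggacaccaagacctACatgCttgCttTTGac
ORM2: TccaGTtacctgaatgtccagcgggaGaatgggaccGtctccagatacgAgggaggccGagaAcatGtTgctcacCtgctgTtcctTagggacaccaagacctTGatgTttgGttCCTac

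The order of levels changed between groups. With rhLUM it ran CP, SERPINA1, SPINK1, SERPINA3, ORM1, LRG1, ITIH4, SAA1, HP and SAA2. There the ranges of ITIH4 and SAA1, and of SAA1 and HP, overlapped, so these neighbours did not differ beyond their spread. In Ctrl the order was CP, SPINK1, SERPINA1, SERPINA3, SAA1, HP, LRG1, SAA2, ORM1 and ITIH4, and no neighbours overlapped. ORM1 and ITIH4, the lowest of the members in Ctrl, stood above SAA1, HP and SAA2 with rhLUM, though the range of ITIH4 overlapped those of SAA1 and HP.

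**Figure D2:**
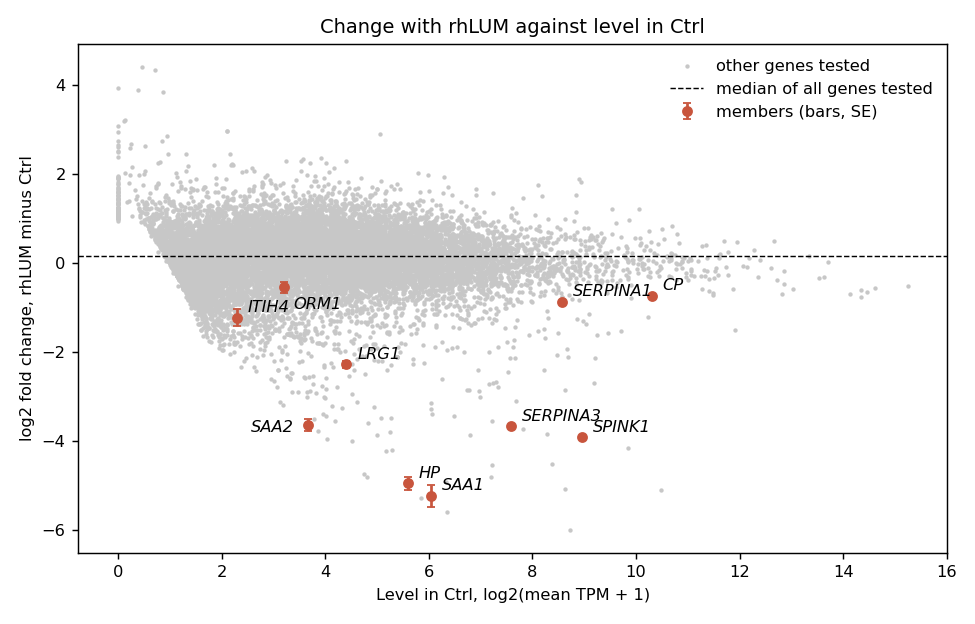
Log2 fold change (rhLUM minus Ctrl) against the Ctrl level, log2(mean TPM + 1), for all 14878 genes tested (grey) and the 10 members (red, bars SE). The dashed line is the median of all genes, 0.16. SAA1 and HP lie near the bottom at -5.22 and -4.95, and CP, SERPINA1 and ORM1 lie above -1.

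Together the members held 1023 ± 11.1 TPM with rhLUM and 2481 ± 37.6 TPM in Ctrl (SD, n = 3 each), so the summed level with rhLUM was 41.2% of that in Ctrl. CP made up 74.0 ± 0.45% of the sum with rhLUM and 50.7 ± 0.40% in Ctrl. SERPINA1 made up 20.3 ± 0.46% with rhLUM and 15.3 ± 0.15% in Ctrl. SPINK1 made up 3.13 ± 0.096% with rhLUM and 19.97 ± 0.55% in Ctrl. Without CP and SERPINA1, the other 8 members summed to 57.0 to 58.5 TPM with rhLUM and to 831 to 860 TPM in Ctrl.

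**Figure D3:**
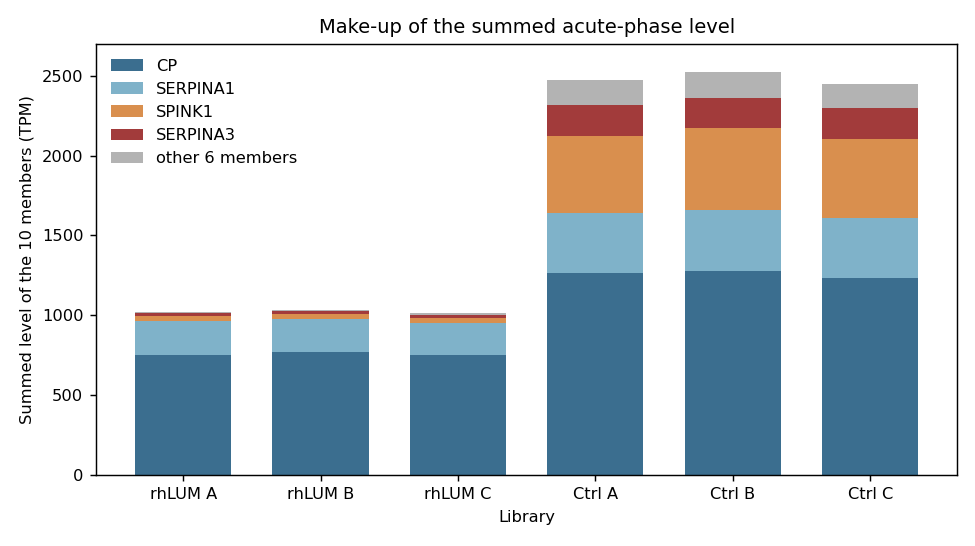
Summed level of the 10 members in each library, in TPM, split by gene. The rhLUM bars reach 1012 to 1034 TPM and the Ctrl bars 2448 to 2522 TPM, and the SPINK1 and SERPINA3 segments are thin in the rhLUM bars.

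Promoter windows of 6 members, 7 in all because SERPINA1 has 2 starts, were searched on both strands over the 250 bases before the RefSeq start (GRCh38.p14). HP, SAA1, SAA2 and CP had no entry in the promoter set used, so the counts below leave them out. The motifs were NF-kB (GGG, 2 free bases, TT, 1 free base, CC), STAT (TTCNNNGAA), the type II IL6 element (CTGGGAA) and C/EBP (TTNNGNAA). A match is a description of the letters and not evidence of binding. Windows of SPINK1, ITIH4, LRG1, SERPINA3 and ORM1 are shown because each holds a match to the STAT motif or the C/EBP letters that SERPINA3 and ORM1 share. Capitals mark the matches, and -1 is the last base before the start.
SPINK1 (chr5:147831672-147831921, minus strand): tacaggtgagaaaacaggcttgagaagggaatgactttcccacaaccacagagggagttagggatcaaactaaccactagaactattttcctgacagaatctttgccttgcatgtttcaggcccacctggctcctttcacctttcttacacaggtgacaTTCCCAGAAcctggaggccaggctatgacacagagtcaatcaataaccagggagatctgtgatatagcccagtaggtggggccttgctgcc
ITIH4 (chr3:52830673-52830922, minus strand): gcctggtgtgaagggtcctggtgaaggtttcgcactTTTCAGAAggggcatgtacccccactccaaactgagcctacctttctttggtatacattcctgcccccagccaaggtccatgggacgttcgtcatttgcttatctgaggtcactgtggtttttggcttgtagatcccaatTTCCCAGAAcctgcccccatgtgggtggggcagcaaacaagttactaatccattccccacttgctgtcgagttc
LRG1 (chr19:4540037-4540286, minus strand): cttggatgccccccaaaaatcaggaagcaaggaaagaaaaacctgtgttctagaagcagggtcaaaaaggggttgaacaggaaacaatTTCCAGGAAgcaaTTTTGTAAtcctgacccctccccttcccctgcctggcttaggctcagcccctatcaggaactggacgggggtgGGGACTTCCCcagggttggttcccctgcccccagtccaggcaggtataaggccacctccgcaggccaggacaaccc
SERPINA3 (chr14:94612141-94612390, plus strand): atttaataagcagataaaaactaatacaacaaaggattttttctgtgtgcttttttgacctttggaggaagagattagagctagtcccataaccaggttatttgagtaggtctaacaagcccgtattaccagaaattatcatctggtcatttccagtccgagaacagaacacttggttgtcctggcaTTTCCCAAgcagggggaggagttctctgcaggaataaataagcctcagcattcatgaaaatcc
ORM1 (chr9:114322848-114323097, plus strand): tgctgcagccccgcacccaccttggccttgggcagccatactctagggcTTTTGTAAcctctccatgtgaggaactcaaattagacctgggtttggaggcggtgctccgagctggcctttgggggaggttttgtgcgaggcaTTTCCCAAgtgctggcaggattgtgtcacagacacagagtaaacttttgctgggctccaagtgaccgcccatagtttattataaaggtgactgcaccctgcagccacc

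The same 9 letters, TTCCCAGAA, matched the STAT motif in SPINK1 (-91 to -83) and in ITIH4 (-74 to -66). In both, the type II IL6 element matched on the other strand within those letters. LRG1 held a STAT match, TTCCAGGAA, at -162 to -154, a C/EBP match at -149 to -142 and the only NF-kB match, GGGACTTCCC, at -76 to -67. SERPINA3 and ORM1 held the same C/EBP letters, TTTCCCAA, at -63 to -56 and -108 to -101. In the nearer-to-coding SERPINA1 window a C/EBP match lay at -202 to -195, and the other SERPINA1 window held none of the 4 motifs. A STAT match was thus in 3 of 7 windows, and in 6.56% of 34943 windows of all genes. C/EBP matched in 5 of 7 windows and in 33.2% of all, NF-kB in 1 of 7 and in 5.05%, and the type II IL6 element in 2 of 7 and in 9.16%. With so few windows these shares were not tested.

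Genes around the members moved both ways. Of 23 tested genes within 100000 bases of a member, other than members, 3 were lower, 10 higher and 10 did not pass, where 22.3% of all genes tested were lower and 44.2% higher. Their median log2 fold change was 0.12, against 0.16 for all genes, so nothing particular to the neighbours is read from these counts. GTF2H1, a transcription factor subunit gene beside the SAA cluster, rose by 0.78, and HPS5, between it and SAA1, was at 0.08. In the serpin cluster SERPINA6, which encodes corticosteroid-binding globulin, stood at 19.63, 20.57 and 17.47 TPM with rhLUM, against 7.49, 6.85 and 6.97 TPM in Ctrl (log2 fold change 1.32, limma adjusted p = 6.08e-06). SERPINA10, the protein Z-dependent protease inhibitor, rose by 1.09. SERPINA5 and SERPINA4, which lie between SERPINA1 and SERPINA3, did not pass, at 0.11 and -0.29. The neighbours that fell were CPHL1P (-1.14), a ceruloplasmin-like pseudogene beside CP, C5orf46 (-1.18) near SPINK1 and COL27A1 (-0.32) near ORM1. Near CP, HLTF rose by 1.19 and TM4SF18 by 0.78. CHAF1A (0.64) and UBXN6 (0.39) were higher near LRG1, and SFMBT1 (0.57) and NEK4 (0.46) near ITIH4, and UBXN6 lost its call after median-of-ratios scaling (adjusted p = 0.0824). DHODH, TXNL4B and DHX38 near HP, PLIN4 and TNFAIP8L1 near LRG1 and AKNA near ORM1 did not pass, at -0.26 to 0.17.

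Of 31 listed relatives of the members, 9 were tested, of which 3 fell, 3 rose and 3 did not pass, where 22.3% of all genes tested were lower and 44.2% higher. ITIH2, a heavy chain of the same family as ITIH4, stood at 296.85, 303.28 and 290.43 TPM with rhLUM, against 79.29, 74.92 and 76.86 TPM in Ctrl. ITIH2 changed by 1.93 on the log2 scale (SE 0.03, limma adjusted p = 3.3e-08), opposite to that of ITIH4. The Kazal-type inhibitor genes SPINK13 and SPINK5 were lower, by -1.29 and -1.04.

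Most other acute-phase genes that could be tested were lower too. Of 30 further proteins that rise in inflammation, 17 were tested, of which 12 were lower and 2 higher, where 22.3% of all genes tested were lower and 44.2% higher. The median log2 fold change of the 17 was -1.13. One of the 17, LBP, was above 1 TPM in Ctrl alone. C3, the central complement component, changed by -5.98. LBP, which hands lipopolysaccharide to its receptor, changed by -5.59, and LCN2, which binds bacterial siderophores, by -5.10. C1S, a complement protease, and FGG, the fibrinogen gamma chain, changed by -2.84 and -2.13. AGT, which encodes angiotensinogen, rose by 0.88, and SERPINA10 by 1.09. CRP and APCS, the pentraxins, were under 0.6 TPM in every library and were not tested.

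Plasma proteins that fall in inflammation went the other way. Of 18 listed, 7 were tested and all 7 were higher with rhLUM, where 44.2% of all genes tested were higher, and their median log2 fold change was 1.32. AHSG (0.32) lost its call after median-of-ratios scaling (adjusted p = 0.104). TF, which encodes transferrin, stood at 233.22, 256.21 and 262.72 TPM with rhLUM, against 59.31, 66.26 and 62.06 TPM in Ctrl (log2 fold change 1.99, limma adjusted p = 3.68e-07). ALB, albumin, changed by 1.51, and ITIH2 and SERPINA6 are on this list as well. The ratio of ALB to the summed members was 0.81 ± 0.0067 with rhLUM and 0.12 ± 0.0025 in Ctrl (SD, n = 3 each).

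**Figure D4:**
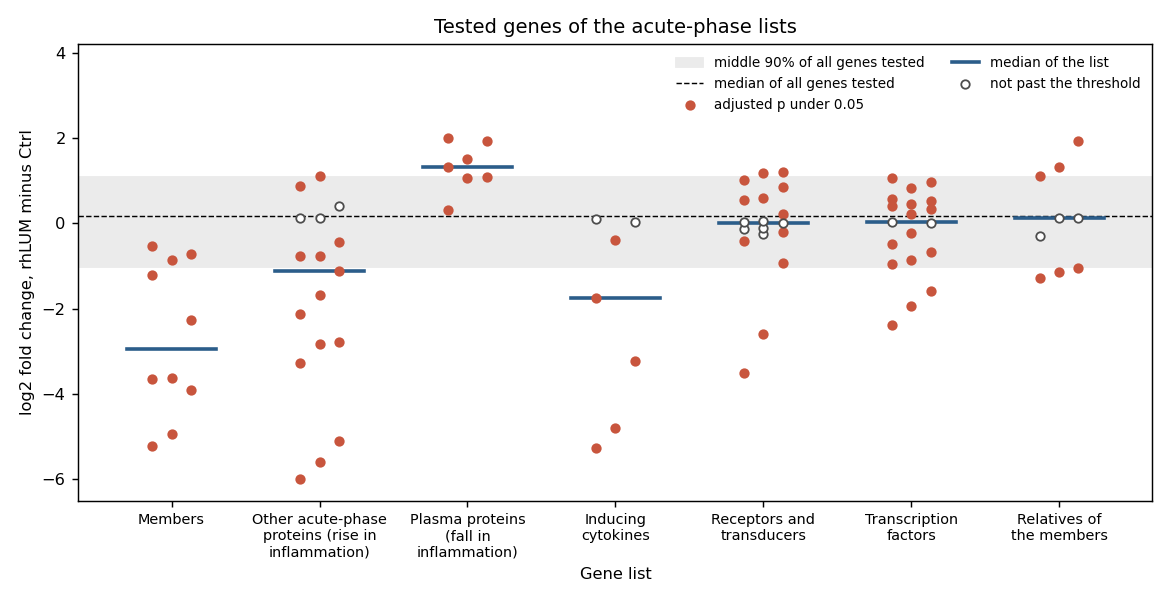
Log2 fold change (rhLUM minus Ctrl) of each tested gene of 7 lists. Filled points passed at an adjusted p under 0.05, open points did not, blue lines are list medians and the grey band holds the middle 90% of all genes tested. Members have a median of -2.95 and plasma proteins that fall in inflammation one of 1.32.

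Most tested cytokines that drive the response were lower in the same tumours. Of 11 listed, 7 were tested, of which 5 fell and none rose, where 22.3% of all genes tested were lower and 44.2% higher. The median of the 7 was -1.75, and IL6 and TNF were above 1 TPM in Ctrl alone. IL6 stood at 0.74, 0.17 and 0.66 TPM with rhLUM, against 54.98, 56.91 and 58.21 TPM in Ctrl (log2 fold change -5.26, limma adjusted p = 3.47e-07). IL1B and IL1A changed by -4.80 and -3.22, and TNF by -1.75. LIF (-0.40) lost its call without Ctrl replicate B (adjusted p = 0.060). CLCF1 (0.02) and IL11 (0.09) did not pass. OSM was under 0.05 TPM in every library.

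Receptors and transducers moved both ways, with 7 higher and 5 lower of 18 tested, where 44.2% of all genes tested were higher and 22.3% lower. The median of the 18 was 0.01, and nothing particular to this list is read from these counts. Scaled by median-of-ratios, its split was 6 up and 7 down. IL6ST, the signal-transducing chain shared by the IL6 family, stood at 95.61, 86.64 and 78.51 TPM with rhLUM, against 36.40, 36.59 and 38.03 TPM in Ctrl (log2 fold change 1.21, limma adjusted p = 6.91e-06). IL6R rose by 0.84 and the kinase gene JAK1 by 1.02. The kinase gene TYK2 (-0.94) and the receptor gene OSMR (-0.41) were among the 5 lower. STAT3 was lower by a small amount, at 42.17, 38.45 and 38.98 TPM with rhLUM and 45.08, 46.57 and 45.81 TPM in Ctrl (log2 fold change -0.20, limma adjusted p = 0.00639). SOCS3, a feedback inhibitor that STAT3 induces, stood at 11.59, 11.75 and 11.72 TPM with rhLUM, against 76.47, 72.99 and 76.58 TPM in Ctrl (log2 fold change -2.59, limma adjusted p = 2.76e-08). SOCS1, above 1 TPM in Ctrl alone, changed by -3.50, and PTPN11, a phosphatase of the same pathway, by 1.18. TNFRSF1A, a TNF receptor, rose by 0.59.

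Among 19 tested transcription factors and their inhibitors, 8 were lower and 9 higher (8 and 7 after median-of-ratios scaling), with a median of 0.04. Of all genes tested, 22.3% were lower and 44.2% higher. CEBPD and CEBPB, the C/EBP factors that inflammation induces, changed by -1.95 (SE 0.08) and -0.96 (SE 0.03), while CEBPA, the form of resting hepatocytes, rose by 0.51 (SE 0.05). NFKBIA and NFKBIZ, inhibitor and cofactor of NF-kB that are themselves its targets, changed by -2.39 and -1.58. Of the NF-kB subunit genes, REL (0.97) and NFKB1 (0.58) were higher, RELB (-0.67) and NFKB2 (-0.23) lower, and RELA (0.01) did not pass. HNF4A rose by 1.07 (limma adjusted p = 5.06e-06). Of 20 listed proteases, receptors and ligands of the members, 6 were tested, of which 4 rose and 1 fell, beside the same 44.2% and 22.3%. SCARB1, a receptor of serum amyloid A and high-density lipoprotein, changed by 0.66, TGFBR2 by 1.29, TLR4 by 0.92 and LRP1, a clearance receptor, by 0.39.

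The 5 other genes whose change across the 6 libraries was most like the median of the members were TCN1, ASS1, C1S, SLPI and CXCL6. Their root mean square difference from it was 0.091 to 0.11 on the log2 scale. With only 2 groups, this measure mostly reflects the size of the change. TCN1 encodes a vitamin B12 binder, ASS1 a urea cycle enzyme, SLPI a secreted leukocyte protease inhibitor and CXCL6 a chemokine. TCN1 and CXCL6 were above 1 TPM in Ctrl alone. SLPI stood at 14.48, 16.05 and 12.52 TPM with rhLUM, against 113.12, 107.43 and 105.74 TPM in Ctrl.

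Hepatocyte and liver cancer markers were present in part. Of 13 listed, 11 were tested, of which 9 were higher with rhLUM and none lower, where 44.2% of all genes tested were higher. These 9 include genes already counted above: ALB, TTR and TF among plasma proteins and HNF4A and FOXA2 among transcription factors. FOXA2 (0.21) lost its call after median-of-ratios scaling, and AFP (-0.12) passed as lower after median-of-ratios scaling (adjusted p = 0.0091). KRT8 and KRT18, the keratins of hepatocytes, averaged 2474 and 1150 TPM with rhLUM and 1060 and 901 TPM in Ctrl. GPC3, a common liver cancer marker, was at most 0.29 TPM and APOA1 at most 1.40 TPM in any library. Several members are also made by myeloid cells. Of 12 myeloid markers 3 were tested, with 2 higher and ITGAM lower, and the summed level of the list was 302 to 306 TPM with rhLUM and 222 to 225 TPM in Ctrl, nearly all from LYZ and CD68. PTPRC was at most 0.23 TPM, and FCGR3A and MPO were listed at 0 in all 6 libraries.

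Summed lymphocyte markers were at 2.75 to 4.82 TPM with rhLUM and 0.84 to 1.57 TPM in Ctrl, with 2 of 9 tested. Both of these, CD3D and CD79A, passed as higher, but they were above 1 TPM with rhLUM alone and passed the filter only through that group. CD79A lost its call under 8 of its 11 alternatives (limma adjusted p = 0.0746 after median-of-ratios scaling). Beside the calls of the myeloid list and of the lists in this paragraph, 44.2% of all genes tested were higher and 22.3% lower. Fibroblast markers summed to 10.6 to 14.9 TPM with rhLUM and 15.2 to 15.9 TPM in Ctrl, with 4 of 10 tested. DCN was lower, and COL1A1 was higher but lost its call under 8 of its 12 alternatives (adjusted p = 0.0772 after median-of-ratios scaling). Endothelial markers summed to 26.9 to 31.8 TPM with rhLUM and 21.65 to 23.01 TPM in Ctrl, with 3 of 8 tested, of which PECAM1 was higher and CDH5, above 1 TPM in Ctrl alone, was lower. Cholangiocyte and acinar markers summed to 273 to 282 TPM with rhLUM and 246 to 257 TPM in Ctrl, with 4 of 10 tested, of which KRT19 was higher and KRT7 and EPCAM lower, EPCAM being above 1 TPM in Ctrl alone. PNLIP and CPA1, of acinar cells, were listed at 0 in all 6 libraries. In xenografts of a human line, blood, stromal and vessel cells come from the host, while the build named is GRCh38. These sums of human symbols, and those of myeloid markers, are therefore no direct measure of such cells. The part of host cells in the members' change was not tested, and whether mouse host reads were removed is not given.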

How the data were processed

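RNA of 6 MHCC97L xenograft libraries (3 rhLUM, 3 Ctrl, grouped by their titles) was read as paired 151-base reads after poly-A selection, per the labels' protocols. The submitters' processing notes name the build GRCh38 and the tools RSEM 1.2.31 and STAR 2.7.8. Annotation release, strand setting and removal of host reads: not given in the sources used here. The values the authors deposited are TPM, per the file headers, in 60725 rows per library. TPM keeps no depth, so the depth is unknown and no counting interval is given.

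Rows sharing a symbol (2210 rows, 313 symbols) were summed. Genes averaging 1 TPM or more across all 6 libraries entered a limma 3.58.1 fit (R 4.3.3) of log2(TPM + 1), with the variance trend, group as the only term and 4 residual degrees of freedom. All p-values are two-sided, with Benjamini-Hochberg adjustment over all 14878 genes and a threshold of 0.05. Fold changes are rhLUM minus Ctrl on that scale, which understates the change of low genes. The fit was tested on simulated data. Coordinates, neighbours and transcripts came from GENCODE release 29, matched by symbol, and promoters from RefSeq on GRCh38.p14. A further motif that was searched is not reported here. Shared sequence was counted as distinct 31-base words of all transcripts of a gene.

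The members and the 13 other lists were chosen with earlier results of these data known, so no list has a test of its own. All members are named, with up to 4 called genes of smallest p from each list, the tested relatives and neighbours, and the 5 genes of most similar pattern. C3, CRP, APCS, OSM, CLCF1, IL11, STAT3, IL6R, IL6ST, JAK1, TYK2 and OSMR were named after their values were seen. So were AGT, AHSG, LIF, CEBPA, RELA, REL, NFKB1, RELB, NFKB2 and the marker genes. Alternatives were median-of-ratios scaling, a pseudocount of 0.1, no filter, a replicate block, limma without the trend, shared symbols apart, rescaling without mitochondrial genes, and leaving out each library.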

Additional observations from a re-analysis of the deposited data

How the results depend on the processing

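All 10 members passed as lower under each of the 13 alternative settings, and none changed direction. A pseudocount of 0.1 gave the largest moves among the low members, with SAA2 at -6.60, SAA1 at -6.46, HP at -6.24 and ITIH4 at -1.78. The summed level of the members with rhLUM was 41.2% of that in Ctrl as deposited, 36.7% after median-of-ratios scaling and 38.3% on rescaling without mitochondrial genes, and 41.0% to 41.6% on leaving out each library. Without a filter on low values, 2 of 16 plasma proteins that fall in inflammation and 3 of 17 proteases and partners were lower. So were 6 of 19 relatives, and 3617 of all 29480 genes in that fit. With the filter, 0 of 7, 1 of 6 and 3 of 9 were lower, and 3313 of all 14878 genes. More genes were tested without it, and nothing particular to these lists is read from these counts. A replicate block by letter left 10 members lower and gave 3217 genes lower and 6420 higher, against 3313 and 6571 without it. Whether the letters mark pairs is not given. Deviations of same-letter libraries correlated at 0.021 (A), -0.012 (B) and 0.088 (C). The best match of rhLUM A was Ctrl B (0.056), that of rhLUM B was Ctrl A (0.021), and that of rhLUM C was Ctrl C. With 3 libraries a group, these values cannot settle whether the libraries were paired. The unknown depth limits HP, SAA1 and SAA2 with rhLUM, whose coefficients of variation were 56.6% and 73.1% for HP and SAA1.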
